A study of Mus musculus with 16 samples.

Results

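Glucose entry, insulin signalling and insulin breakdown were followed through 9 genes in the ventricles of neonatal mice. The genes were Slc2a1 and Slc2a4 (glucose carriers), Hk2 (which traps glucose in the cell), Insr, Irs1, Irs2 and Pik3r1 (the insulin receptor, its adaptors and the regulatory arm of the kinase they recruit), Txnip (a brake on glucose uptake) and Ide (the insulin-degrading enzyme). They were matched by symbol, 9 of the 22468 genes counted, and had been chosen by their differences between the groups in an earlier analysis of the same counts. Their levels, differences and calls are therefore a description of these samples and carry no p-value here.

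The ventricles came from Chrna7 knockout (KO) mice of a Jackson Laboratory line, for which the labels name no tissue-specific driver, and from wild-type (WT) mice. Chrna7 encodes the alpha 7 subunit of a nicotinic acetylcholine receptor. Each genotype was sampled after surgical myocardial infarction (MI), in which a coronary artery is tied, and after sham surgery. There were 4 samples in each of the 4 groups: KO MI, KO sham, WT MI and WT sham. Whole ventricles, from above and below the tie, were homogenised, so a level averages injured and spared muscle and every cell type present. The labels give neither the day of life, the time after surgery nor the sex, and do not say whether each sample is a separate animal.

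Insulin binds its receptor, whose kinase phosphorylates the adaptors Irs1 and Irs2. These dock phosphoinositide 3-kinase through the Pik3r1 product p85 alpha, and the kinase AKT then moves the carrier GLUT4 (Slc2a4) to the surface of muscle cells and keeps FOXO transcription factors out of the nucleus. The heart relies on GLUT1 (Slc2a1) and on glycolysis before birth and shifts towards GLUT4 and fatty acids in the first weeks of life. TXNIP, whose transcription rises with intracellular glucose, promotes removal of both carriers from the surface. IDE is a zinc metalloprotease that degrades insulin and other small peptides.

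The libraries held 10711442 to 17223580 reads assigned to genes, and 13412 genes passed the filter on low counts, the 9 genes among them. Chrna7 itself had 0 to 4 reads in every library, 11 in all over KO MI, 3 over KO sham, 3 over WT MI and 4 over WT sham, which checks neither the deletion nor the labels. Cardiomyocyte markers were abundant in every library (8 markers, summed level 40900 to 74300 CPM, the count scaled to library size). On the first principal component, with 25.5% of the variance, the libraries scored -20.7 to -4.21 in KO MI, 27.9 to 31.6 in KO sham, -28.9 to -0.348 in WT MI and -15.4 to 0.948 in WT sham. Lung epithelial transcripts set 3 libraries apart. Their summed level over 6 markers was 335 CPM in KO MI replicate 4, 3.89 CPM in WT MI replicate 2 and 3.17 CPM in WT sham replicate 2, and 45.3 to 167 CPM in the other libraries. In the 2 comparisons that use KO sham, counts of called genes among the 9 and in the pathway lists are mostly given with and without them, first without the 2 lowest and then without all 3.

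Per kilobase of exon, Txnip was the most abundant of the 9 genes, at 153 ± 55.3 CPM per kb (SD over 16 samples), followed by Slc2a4 at 38.3 ± 5.29 CPM per kb. Hk2 (24.4 ± 3.42) and Ide (19 ± 7.76 CPM per kb) came next, with ranges that overlapped. Slc2a1 (5.55 ± 1.71), Insr (5.45 ± 1.11) and Irs2 (5.14 ± 3.04 CPM per kb) could not be ordered against their spread. Pik3r1 (2.61 ± 0.622) and Irs1 (1.49 ± 0.443 CPM per kb) had the lowest means over the 16 samples. The ranges of Slc2a1 (2.59 to 8.72) and Irs2 (1.9 to 12.6) overlapped that of Pik3r1 (1.63 to 3.75 CPM per kb), and in KO sham the 3 means lay together at 3.47, 3.32 and 3.48 CPM per kb. Of the insulin genes themselves, Ins1 had no read in any library, and Ins2 had 0 to 3 reads per library.

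**Figure D1:**
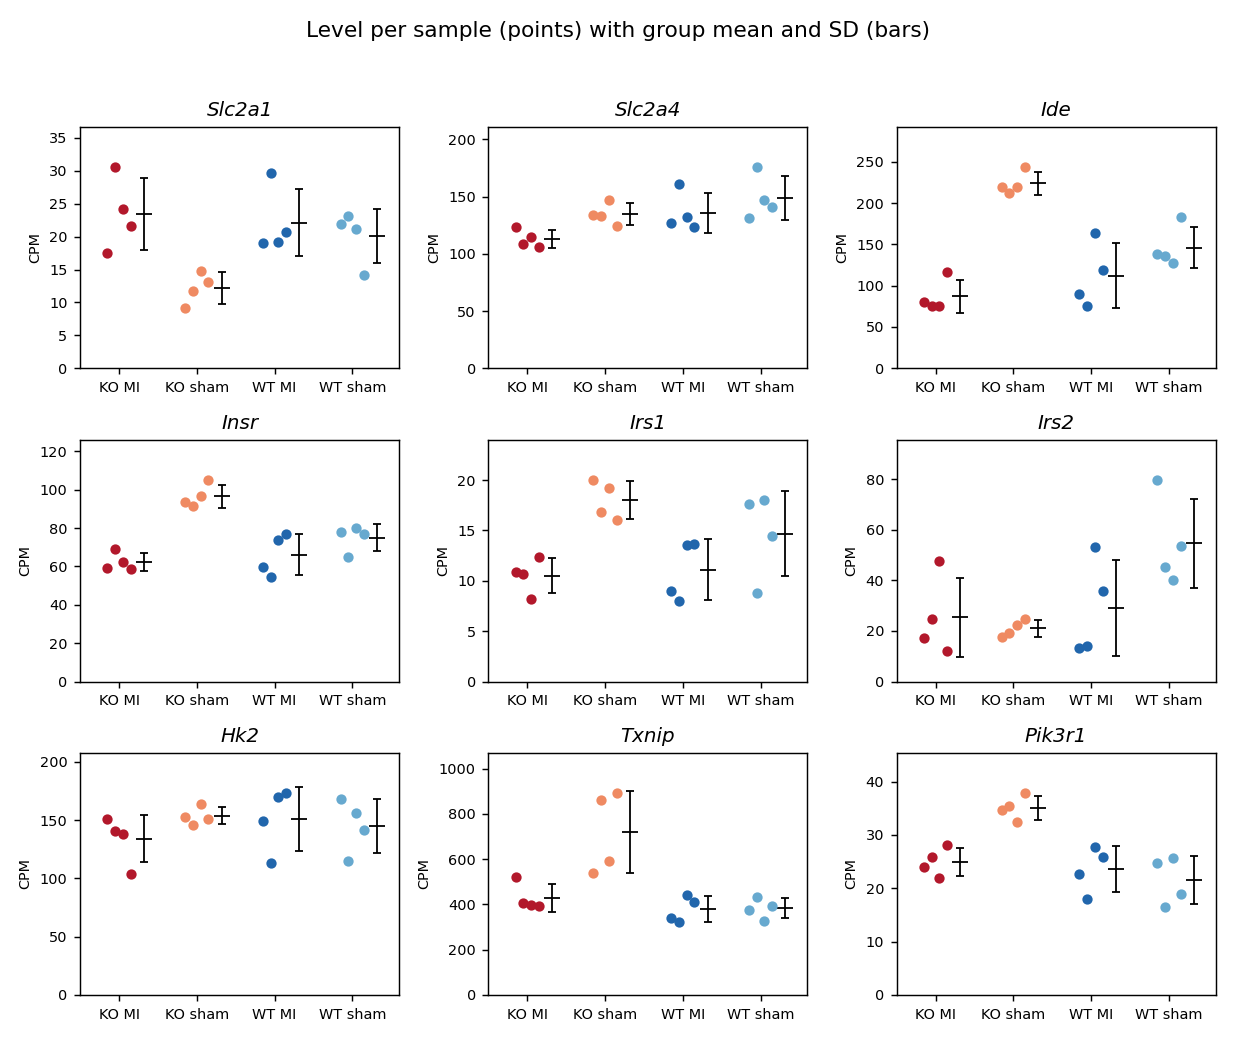
Level of each of the 9 genes in every sample (points, CPM on a linear axis from 0), in the groups KO MI, KO sham, WT MI and WT sham, with the group mean and SD as bars (n = 4). Ide stood at 212 to 244 CPM in the KO sham samples, above all the other samples, which lay between 74.9 and 183 CPM.

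A gene was called in a comparison where the edgeR quasi-likelihood test, adjusted by Benjamini-Hochberg over all 13412 genes, gave a value under 0.05. Within KO mice, infarction against sham called 6 of the 9 genes, 1 higher (Slc2a1) and 5 lower (Ide, Insr, Irs1, Txnip and Pik3r1), against 16.6% of all genes tested (8.54% higher and 8.02% lower). An unadjusted p under 0.05 was reached by 7 of the 9, against 31.4% of all genes. In 7 of the 9 the KO MI and KO sham samples did not overlap, as in 24.0% of all genes. Within WT mice the same surgery called 0 of the 9 (background 2.25%, 1.32% higher and 0.932% lower), with 0 at an unadjusted p under 0.05 in edgeR and 0 by DESeq2 and by limma voom, and the groups overlapped in every gene. Over all genes 15.0% reached an unadjusted p under 0.05 and 8.21% did not overlap. After sham surgery, KO against WT called 5, 4 higher (Ide, Insr, Txnip and Pik3r1) and 1 lower (Slc2a1), against a background of 15.3% (7.60% higher and 7.74% lower). Groups did not overlap in 5, Ide, Insr, Txnip and Pik3r1 above and Irs2 below (background 26.3%). After infarction, KO against WT called 0 (background 0.0149%, with 0.00746% in each direction), with 1 at an unadjusted p under 0.05 in edgeR (4.76% of all genes), 0 by DESeq2 and 0 by voom. In that comparison the groups overlapped in all 9 genes (no overlap in 2.11% of all genes). Without the 2 libraries lowest in lung transcripts these 4 counts were 7, 0, 4 and 0, and without all 3 they were 7, 0, 5 and 0. Infarction against sham in KO and KO against WT after sham share the 4 KO sham samples, so their opposite signs are not independent of each other. In whole tissue, fewer cells of a type and less RNA of a gene in each cell cannot be told apart.

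The response to infarction in KO minus that in WT, the interaction, called 0 of the 9 genes (background 2.74%, 1.65% positive and 1.10% negative), with 5 at an unadjusted p under 0.05 in edgeR (18.1% of all genes), 2 by DESeq2 and 4 by voom. Its log2 values were -0.97 ± 0.28 (SE) for Ide, -0.73 ± 0.22 for Txnip, -0.62 ± 0.20 for Pik3r1, -0.45 ± 0.14 for Insr and 0.81 ± 0.27 for Slc2a1. With all 16 libraries kept, this count was also 1 with a replicate block and 1 with a Y-linked covariate. The count changed with the libraries left out too. It was 4 without WT MI replicate 2 and WT sham replicate 2 (Ide -1.09, Insr -0.47, Txnip -0.87, Pik3r1 -0.62), 3 without these and KO MI replicate 4 (Ide -1.27, Insr -0.45, Pik3r1 -0.69), and 5 without WT MI replicate 2 alone. Txnip was also called without KO MI replicate 1 (-0.83) or KO sham replicate 1 (-0.84), which did not stand apart in lung transcripts. A difference between the genotypes in the response of these genes was thus called only in some of the fits.

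**Figure D2:**
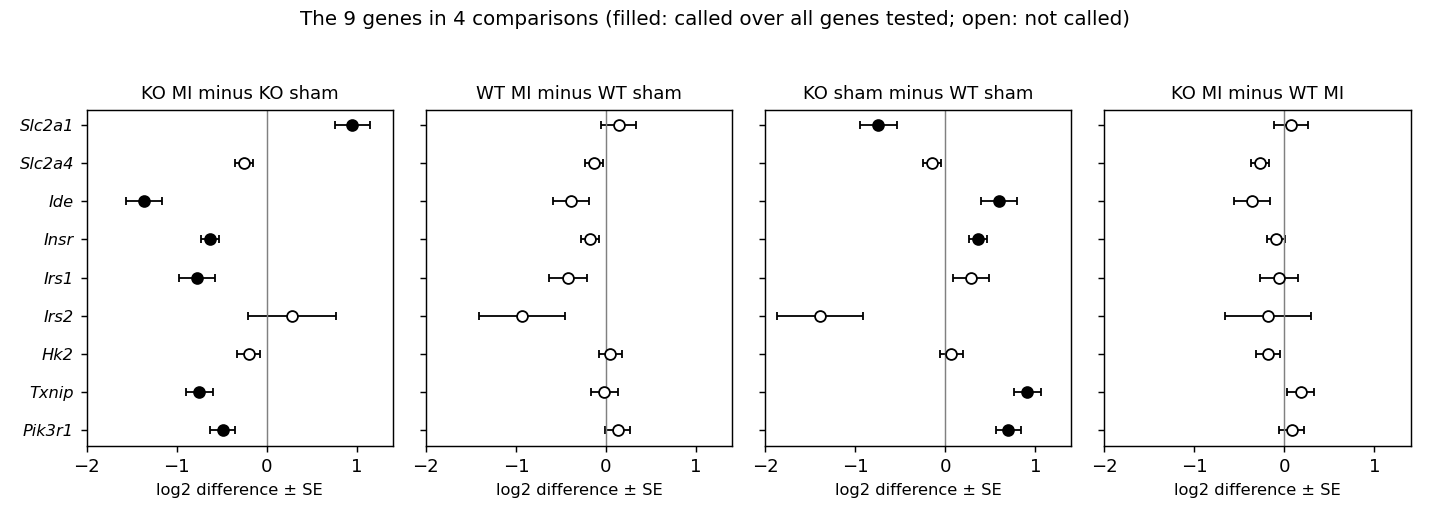
Log2 difference with its standard error for each gene in 4 comparisons (filled circles called over all genes tested, open circles not called). In KO MI minus KO sham, 6 circles are filled, Slc2a1 to the right at 0.95 and 5 to the left, down to -1.36 for Ide, whereas WT MI minus WT sham and KO MI minus WT MI have 0 filled circles.

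Slc2a1, on chromosome 4, encodes GLUT1, the carrier of basal glucose uptake. It had 17.5, 30.6, 24.2 and 21.6 CPM in the KO MI samples, against 9.08, 11.8, 14.7 and 13.1 CPM in KO sham. In WT it had 19, 29.7, 19.2 and 20.7 CPM after MI, against 21.9, 23.2, 21.1 and 14.2 CPM after sham. The KO sham samples were thus the low ones, and only WT sham replicate 4 came down to their level. Means were 23.5 ± 5.47 CPM in KO MI and 12.2 ± 2.39 CPM in KO sham (SD, n = 4 each), a log2 difference of 0.95 ± 0.19 (SE), a gain of 93.6%. KO sham lay below WT sham by a log2 difference of -0.74 ± 0.20, a call that ended without KO sham replicate 1 (-0.62). In WT the response to MI was 0.14 ± 0.19.

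The Slc2a1 promoter is shown because Slc2a1 was the 1 gene of the 6 called between KO MI and KO sham that was higher. In the 250 bases before its RefSeq start (GRCm38.p6, chr4:119108495-119108744, plus strand), capitals mark ACGTG, the core letters of hypoxia response elements, 36 bases before the start.
Slc2a1: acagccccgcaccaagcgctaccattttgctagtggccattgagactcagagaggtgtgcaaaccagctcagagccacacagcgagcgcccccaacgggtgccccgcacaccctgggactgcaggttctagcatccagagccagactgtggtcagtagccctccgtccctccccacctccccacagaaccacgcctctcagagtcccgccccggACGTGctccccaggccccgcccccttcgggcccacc
These 5 letters occur on either strand in 16.6% of the 32851 promoter windows of that length and in 4 of the 7 genes of the group that have a window. Besides Slc2a1, these are Irs1, called lower in KO MI than in KO sham, and Irs2 and Hk2, not called.

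Slc2a4, on chromosome 11, encodes GLUT4, the insulin-responsive carrier of muscle and fat. Its levels were 123, 109, 115 and 106 CPM in KO MI, against 134, 133, 147 and 124 CPM in KO sham. The 4 KO MI samples lay below all 4 KO sham samples by a narrow margin, with a log2 difference of -0.25 ± 0.10 that was not called. It was called by voom (-0.23), in a fit of the KO samples alone (-0.25), after correction for transcript length and GC content (-0.29), without WT MI replicate 2 (-0.25) and without the 2 or the 3 libraries that stood apart (-0.25 and -0.21). WT samples held 127, 161, 132 and 123 CPM after MI, against 131, 176, 147 and 141 CPM after sham, with an uncalled difference of -0.13 ± 0.10.

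Set against each other per kilobase of exon, Slc2a4 exceeded Slc2a1 in every sample. The ratio was 7.1, 3.6, 4.77 and 4.92 in KO MI, against 14.9, 11.4, 10.1 and 9.54 in KO sham. It was 6.76, 5.48, 6.94 and 5.99 in WT MI, against 6.03, 7.65, 7.03 and 10 in WT sham. The KO sham ratio averaged 11.5 ± 2.41 and the other group means lay between 5.1 and 7.68. The KO MI ratio was 5.1 ± 1.46, and all 4 KO MI values lay below all 4 KO sham values.

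Among the 8 other glucose transporter genes tested, 1 was called higher in KO MI than in KO sham (12.5%, against 8.54% of all genes called higher). The count was 1 without the 2 libraries low in lung transcripts, 2 without all 3 that stood apart and 2 without KO MI replicate 4 alone. The called gene was Slc2a6, encoding GLUT6, at 1.02 ± 0.355 CPM in KO MI and 0.294 ± 0.0248 CPM in KO sham (log2 1.78 ± 0.38, edgeR adjusted p = 0.00482), a level near the floor of 3 reads (0.18 to 0.289 CPM). Slc2a9, which carries urate, the single gene of the list called after sham surgery with or without those libraries, was higher in KO sham (3.34 ± 0.745 CPM) than in WT sham (1.67 ± 0.263 CPM; log2 0.99 ± 0.23, adjusted p = 0.00798). Slc2a3, encoding GLUT3, was at 3.05 ± 1.08 CPM in KO MI, against 1.94 ± 0.343 CPM in KO sham, and was not called (log2 0.66 ± 0.25, adjusted p = 0.0728).

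Of 18 tested genes that sort GLUT4 vesicles, 2 were called higher and 1 lower in KO MI than in KO sham (16.7%, background 16.6%). The 3 calls became 4 without the 2 libraries, 7 without the 3, 6 without KO MI replicate 4 and 1 without KO sham replicate 4. The 2 higher ones were the small GTPases Rab8a (log2 0.30 ± 0.08, edgeR adjusted p = 0.0162) and Rab13 (log2 0.30 ± 0.10, adjusted p = 0.038). Without KO sham replicate 4 neither was called (0.28 and 0.29), and Rab13 was also lost without KO MI replicates 1 or 3 or KO sham replicates 1 or 3 (0.25 to 0.33) and after the length and GC correction (0.16). KO sham against WT sham called 3 higher (16.7%, background 15.3%), which became 1 without the 2 libraries, 6 without the 3, 6 without KO MI replicate 4, and 1 without any 1 of the KO sham libraries or of WT sham replicates 2 and 3. They included Lnpep (log2 0.86 ± 0.27), whose aminopeptidase product rides in GLUT4 vesicles, and Rhoq (log2 0.46 ± 0.14), which encodes the GTPase TC10, and each of these 2 calls ended in 7 of the 16 fits that left out 1 library. Tbc1d4, encoding the AKT substrate AS160 that holds the vesicles back, stood at 39 ± 6.71 CPM in KO MI and 41.5 ± 1.49 CPM in KO sham (log2 -0.09 ± 0.13, adjusted p = 0.693).

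Hk2, on chromosome 6, encodes the hexokinase that phosphorylates glucose in muscle under insulin. It had 151, 141, 138 and 104 CPM in KO MI, against 153, 146, 164 and 151 CPM in KO sham. WT samples had 149, 113, 170 and 173 CPM after MI, against 168, 115, 156 and 142 CPM after sham. All 4 groups overlapped, and the log2 difference was -0.20 ± 0.13 in KO and 0.05 ± 0.13 in WT. Hk1, the hexokinase of most other cells and of the fetal heart, was likewise uncalled at 305 ± 70.3 CPM in KO MI and 297 ± 29.5 CPM in KO sham (log2 0.04 ± 0.13, edgeR adjusted p = 0.867). WT samples had 355 ± 35.5 CPM of Hk1 after MI and 367 ± 11.3 CPM after sham. Unlike for Hk2, the KO sham samples (268 to 324 CPM) lay below all WT sham samples (358 to 382 CPM). That difference was not called, and 26.3% of all genes had no overlap there.

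Of 16 tested genes for the other hexokinases and glycogen, 3 were called higher and 3 lower in KO MI than in KO sham (37.5%, background 16.6%). The 6 calls were 6 without the 2 libraries, 9 without the 3 and 4 to 7 over the fits that left out 1 library. Hk3, a hexokinase found mainly in myeloid cells, rose to 3.71 ± 0.646 CPM in KO MI, against 1.24 ± 0.308 CPM in KO sham (log2 1.58 ± 0.24, edgeR adjusted p = 0.000462). Ppp1r3c, which targets protein phosphatase 1 to glycogen, rose to 61 ± 9.52 CPM in KO MI, against 37.2 ± 3.03 CPM in KO sham (log2 0.71 ± 0.12, adjusted p = 0.000703). The brain isoform of glycogen phosphorylase, Pygb, fell to 500 ± 25.3 CPM in KO MI, against 685 ± 36.5 CPM in KO sham (log2 -0.45 ± 0.08, adjusted p = 0.000861). Phka1, a subunit of phosphorylase kinase, was lower by -0.45 ± 0.09 (adjusted p = 0.00431), a call lost after the length and GC correction (-0.29).

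In the same list, 1 gene was called higher and 3 lower in KO sham than in WT sham. In WT MI 2 were called higher than in WT sham (12.5%, against 1.32% of all genes called higher). These 2 calls were 0 without WT MI replicate 1, WT sham replicate 1 or WT sham replicate 4, and 2 without the 2 or the 3 libraries. The 4 calls after sham (25%, background 15.3%) became 3 without the 2 libraries, 6 without the 3, and 2 without KO sham replicate 2, WT sham replicate 2 or WT sham replicate 3. Gyg1, encoding glycogenin, which primes glycogen, stood at 120 ± 5.91 CPM in KO sham and 164 ± 18.4 CPM in WT sham (log2 -0.46 ± 0.10, edgeR adjusted p = 0.00558). Gys1, muscle glycogen synthase, was at 94.4 ± 5.59 CPM in KO sham and 122 ± 6.02 CPM in WT sham (log2 -0.38 ± 0.10, adjusted p = 0.0186), a call that ended without KO sham replicate 2 or WT sham replicate 3 (-0.35 each). Ppp1r3c was lower in KO sham by -0.42 ± 0.12 (adjusted p = 0.0191), lost without KO sham replicate 4 (-0.37) or WT sham replicate 2 (-0.38). Pygb was higher in KO sham by 0.23 ± 0.08 (adjusted p = 0.045), a call lost in 12 of the 16 fits without 1 library. The Ppp1r3c call in WT (68.1 ± 10.7 CPM after MI and 49.6 ± 3.4 CPM after sham, adjusted p = 0.0425) was lost in 12 of those 16 fits.

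**Figure D3:**
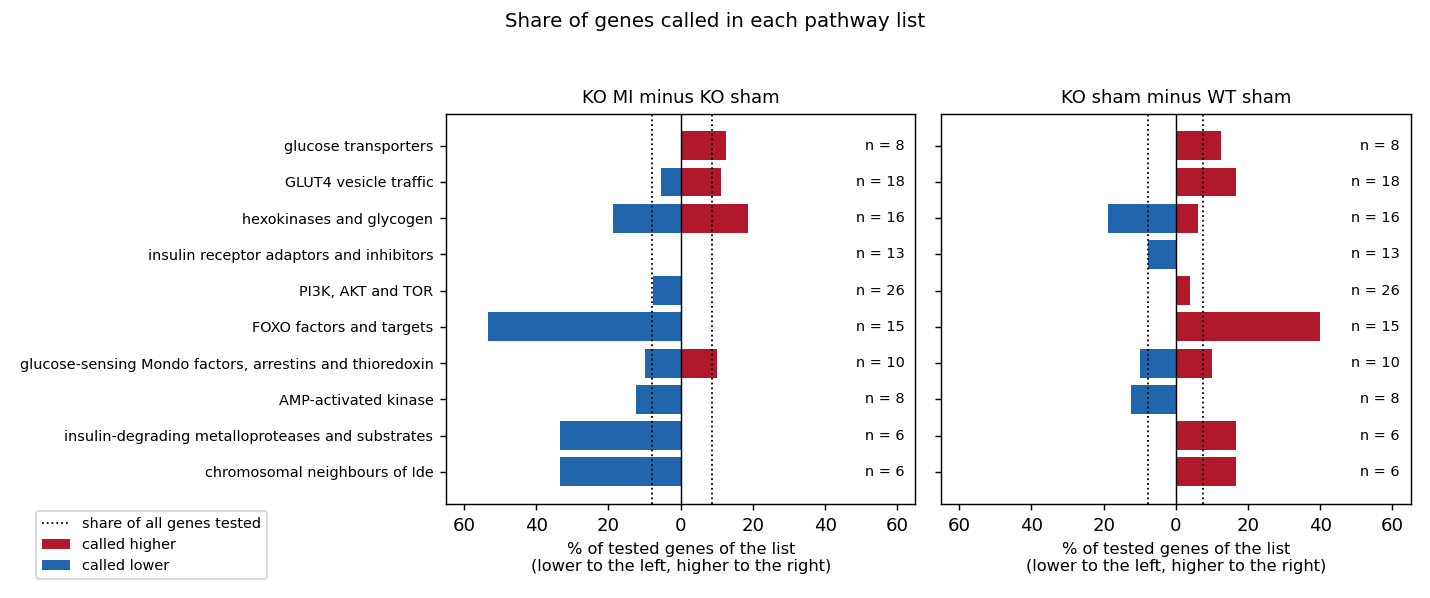
Share of the tested genes of each of 10 pathway lists called lower (bars to the left) or higher (bars to the right), with the number tested at the right of each panel and the share of all genes tested as dotted lines. The FOXO list reached 53.3% lower in KO MI minus KO sham and 40% higher in KO sham minus WT sham, 2 comparisons that share the KO sham samples.

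Insr, on chromosome 8, encodes the insulin receptor. It had 59.1, 68.9, 62.2 and 58.7 CPM in KO MI, against 93.6, 91.3, 96.6 and 105 CPM in KO sham. In WT it had 59.7, 54.6, 73.6 and 77 CPM after MI, against 77.9, 64.9, 80.3 and 77 CPM after sham. Every KO sham sample exceeded all 12 others. The log2 difference was -0.63 ± 0.10 between KO MI and KO sham, a loss of 35.5%, and 0.36 ± 0.10 between KO sham and WT sham. Insr has a long transcript (13.7 kb of exon) and was the gene most affected by the correction for length and GC content, which gave -0.39 for the first, still called, and 0.15 for the second, no longer called. The second call also ended without KO sham replicates 3 or 4 (0.36 and 0.32) or WT sham replicate 2 (0.29).

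Irs1, on chromosome 1, encodes an adaptor that links the receptor to phosphoinositide 3-kinase, in muscle above all to glucose uptake. Its levels were 10.9, 10.7, 8.21 and 12.4 CPM in KO MI, against 20, 16.8, 19.2 and 16 CPM in KO sham. In WT they were 8.99, 7.96, 13.6 and 13.7 CPM after MI, against 17.6, 8.82, 18 and 14.5 CPM after sham. All KO MI samples lay below all KO sham samples (log2 -0.77 ± 0.20), a call that ended without KO MI replicate 3 (-0.67), while the WT groups overlapped (-0.42 ± 0.21). Irs1 is the only one of the 9 genes that overlaps another tabulated gene, Gm9747 on the opposite strand (8.91 CPM). Since the strand setting of the counting is not given in the sources used here, reads of Irs1 and Gm9747 may not be fully separated.

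Irs2, on chromosome 8, encodes the second adaptor. Its coefficient of variation was the highest of the 9 genes in KO MI, WT MI and WT sham, and in KO sham it was below those of Txnip (25.1%) and Slc2a1 (19.7%). Its levels were 17.1, 24.9, 47.5 and 12 CPM in KO MI, against 17.5, 19.2, 22.5 and 24.7 CPM in KO sham, a coefficient of variation of 61.8% in KO MI and 15.4% in KO sham. In WT they were 13.3, 14.1, 53.1 and 35.9 CPM after MI, against 79.6, 45.2, 40.1 and 53.6 CPM after sham. Every KO sham sample lay below every WT sham sample (21 ± 3.23 and 54.6 ± 17.5 CPM, log2 -1.39 ± 0.48). This was the largest difference of the 9 genes in that comparison, had the widest SE and was not called. DESeq2 (-1.39), voom (-1.28), a fit of the sham samples alone (-1.39), the length and GC correction (-1.51) and the fits without KO MI replicate 3 or WT MI replicate 3 (-1.39 each) called it.

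The Irs2 promoter is shown for the letters of insulin-regulated and E-box elements that lie side by side in it. In the 250 bases before its RefSeq start (GRCm38.p6, chr8:11008930-11009179, minus strand), capitals mark CACGTG, an E-box, 44 bases before the start, and TGTTTTG, the reverse complement of the insulin response letters CAAAACA, 37 bases before it.
Irs2: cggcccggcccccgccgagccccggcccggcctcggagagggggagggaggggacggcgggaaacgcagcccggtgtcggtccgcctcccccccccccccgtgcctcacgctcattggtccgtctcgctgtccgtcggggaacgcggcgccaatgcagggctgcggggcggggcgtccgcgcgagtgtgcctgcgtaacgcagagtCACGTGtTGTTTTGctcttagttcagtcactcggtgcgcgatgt
On either strand CAAAACA is found in 5.56% of the 32851 windows and in 3 of the 7 available for the group (Ide, Irs1 and Irs2), and CACGTG in 6.02% and 2 of 7 (Irs1 and Irs2). Each CACGTG also holds ACGTG on both strands.

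Pik3r1, on chromosome 13, encodes p85 alpha, which docks the kinase on the phosphorylated adaptors and, when in excess, holds the signal back. It had 24, 25.8, 21.9 and 28.2 CPM in KO MI, against 34.7, 35.4, 32.4 and 37.8 CPM in KO sham. In WT it had 22.7, 18, 27.8 and 25.9 CPM after MI, against 24.8, 16.5, 25.7 and 18.9 CPM after sham. Once more the KO sham samples stood above all the others. KO sham exceeded WT sham by a log2 difference of 0.70 ± 0.14, a gain of 62.7%, called in every fit that left out 1 library (0.59 to 0.80). KO MI was lower than KO sham by -0.49 ± 0.14, and this call ended without KO MI replicate 3 (-0.43) or KO sham replicate 4 (-0.45).

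Of 13 tested genes for other receptor adaptors and inhibitors, edgeR called 0 between KO MI and KO sham (16.6% of all genes). An unadjusted p under 0.05 was reached by 2 (31.4% of all genes), and DESeq2 and voom called 0. Without KO MI replicate 1 there was 1, and without the 2 or the 3 libraries 0. Grb10, which binds and inhibits the receptor, was at 120 ± 12.5 CPM in KO MI and 121 ± 5.05 CPM in KO sham. Igf1r, the receptor for insulin-like growth factor 1, was at 24.2 ± 5.74 CPM in KO MI and 24.6 ± 0.518 CPM in KO sham. Cav3, the caveolin of muscle membranes, was the single gene of this list called between KO sham (99.7 ± 4.45 CPM) and WT sham (130 ± 16.9 CPM; log2 -0.39 ± 0.10, edgeR adjusted p = 0.0141), a call lost after the length and GC correction (-0.21). The list's count after sham was 1 without the 2 libraries, 2 without the 3 and 2 without KO MI replicate 4.

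Of 26 tested genes of phosphoinositide 3-kinase, AKT and TOR, 2 were called lower in KO MI than in KO sham (7.69%, against 8.02% of all genes called lower). The count became 4 without the 2 libraries, 8 without the 3, 9 by voom, 7 without KO MI replicate 4, 4 without WT MI replicate 2 and 1 without KO MI replicate 2. Inpp5k, a phosphatase of the kinase's lipid product, was at 29 ± 3 CPM in KO MI and 39.8 ± 3.33 CPM in KO sham (log2 -0.46 ± 0.10, edgeR adjusted p = 0.0044). It was the single gene of the list called between KO sham and WT sham (29.5 ± 3.22 CPM; log2 0.43 ± 0.10, adjusted p = 0.00637), a count that was 1 without the 2 libraries, 2 without the 3, 3 without KO MI replicate 4 or WT MI replicate 2 and 2 without WT sham replicate 1. Phlpp1, which dephosphorylates AKT, was lower by -0.36 ± 0.09 (adjusted p = 0.0147), lost without KO MI replicate 2 (-0.32) and after the length and GC correction (-0.19). Akt2, the AKT of insulin-stimulated glucose uptake, was at 170 ± 7.25 CPM in KO MI and 179 ± 6.19 CPM in KO sham (log2 -0.08 ± 0.07, adjusted p = 0.493).

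Txnip, on chromosome 3, encodes the arrestin-like protein that withdraws glucose carriers from the surface and binds thioredoxin. It had 519, 406, 398 and 392 CPM in KO MI, against 539, 862, 590 and 890 CPM in KO sham. In WT it had 339, 321, 441 and 412 CPM after MI, against 375, 433, 326 and 393 CPM after sham. KO sham was the high group, yet it was itself spread in pairs, and its lowest sample was only just above the highest KO MI sample. Means were 428 ± 60.4 CPM in KO MI, 720 ± 181 CPM in KO sham, 378 ± 57.4 CPM in WT MI and 382 ± 44.5 CPM in WT sham. The log2 difference was -0.75 ± 0.15 between KO MI and KO sham and 0.91 ± 0.15 between KO sham and WT sham, both called in each of the 16 fits that left out 1 library, and -0.02 ± 0.15 between WT MI and WT sham.

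The Txnip promoter is shown because Txnip is a textbook target of both FOXO and the glucose-sensing Mondo factors. In the 250 bases before its RefSeq start (GRCm38.p6, chr3:96557707-96557956, plus strand), capitals mark the FOXO letters GTAAACA 121 bases before the start, and CACGAG at 85 and again at 74 bases, the half-sites of its carbohydrate response element.
Txnip: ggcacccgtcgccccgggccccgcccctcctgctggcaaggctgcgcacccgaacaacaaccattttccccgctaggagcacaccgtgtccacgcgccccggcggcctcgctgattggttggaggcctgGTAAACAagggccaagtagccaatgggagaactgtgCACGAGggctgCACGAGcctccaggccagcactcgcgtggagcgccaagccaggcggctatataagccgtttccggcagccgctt
On either strand GTAAACA is found in 3.17% of the 32851 windows and CACGAG in 5.37%, and each in 1 of the 7 windows of the group, that of Txnip. Of the FOXO list's genes with a window, Trim63, a ubiquitin ligase of muscle, holds GTAAACA, while Pdk4, Gadd45a, Cited2, Sesn1, Klf15 and Foxo1 do not. A match is a description of letters and not of binding.

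FOXO factors and genes known as their targets made up the list with the highest share of calls in KO MI against KO sham. Of 15 tested, 8 were called lower (53.3%, against 8.02% of all genes called lower), 14 had a negative difference, and the median log2 difference was -0.38, against 0.01 over all genes. After sham surgery 6 of the 15 were called higher in KO than in WT (40%, against 7.60% of all genes), with a median of 0.27, against -0.01 over all genes. The 2 counts share the KO sham samples. The first was 5 without KO sham replicate 2, 10 without the 2 libraries lowest in lung transcripts and 10 without all 3 that stood apart. The second was 5 without the 2, 7 without the 3, and 4 without any 1 of the KO sham libraries or of WT sham replicates 2 and 3. Within WT mice infarction called 0 of the 15 (2.25% of all genes), with 6 at an unadjusted p under 0.05 in edgeR (15.0% of all genes). DESeq2 called 2 and voom 1.

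Pdk4, which encodes the kinase that shuts pyruvate dehydrogenase and so spares glucose, fell to 124 ± 31.8 CPM in KO MI, against 270 ± 54.9 CPM in KO sham (log2 -1.12 ± 0.15, edgeR adjusted p = 0.00024). WT samples had 99.3 ± 11.5 CPM after MI and 148 ± 14.4 CPM after sham (log2 -0.58 ± 0.15, adjusted p = 0.0527), with no overlap between these groups either. Gadd45a, a growth arrest gene, was at 12.7 ± 2.45 CPM in KO MI and 21.7 ± 2.34 CPM in KO sham (log2 -0.78 ± 0.13, adjusted p = 0.000786). Cited2, a coactivator that limits hypoxia-inducible factor, was at 30.4 ± 4.05 CPM in KO MI and 41.7 ± 1.82 CPM in KO sham (log2 -0.46 ± 0.09, adjusted p = 0.00382). Foxo6, itself a FOXO factor, was at 5.54 ± 1.58 CPM in KO MI and 9.9 ± 1.08 CPM in KO sham (log2 -0.83 ± 0.19, adjusted p = 0.00613). These 4 calls held in each fit that left out 1 library. Klf15, a metabolic transcription factor of the heart, was lower by -0.41 ± 0.12 (adjusted p = 0.0257), lost without KO MI replicates 1 or 3 (-0.38 and -0.33) or KO sham replicates 2 or 3 (-0.40 and -0.38). Its levels were alike in the 2 genotypes, at 10.1 ± 1.42 CPM in KO MI and 13.5 ± 0.933 CPM in KO sham. WT samples had 10.3 ± 1.45 CPM after MI and 13.6 ± 0.841 CPM after sham. These WT groups did not overlap (8.21% of all genes), though the difference was not called. Foxo1 was not called (16.9 ± 2.53 CPM in KO MI and 19.7 ± 2.02 CPM in KO sham, adjusted p = 0.198).

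Between the sham groups, Sesn1, encoding a sestrin that restrains TOR, stood at 62.6 ± 5.95 CPM in KO and 39.5 ± 1.73 CPM in WT (log2 0.65 ± 0.09, edgeR adjusted p = 0.000128). Gadd45a (0.84 ± 0.13, adjusted p = 0.000344), Cited2 (0.56 ± 0.10, adjusted p = 0.000767) and Pdk4 (0.86 ± 0.15, adjusted p = 0.00125) followed. Sesn1 was the single gene of all 126 tested in the lists called in the interaction (log2 -0.51 ± 0.13, adjusted p = 0.0395). This is 0.794% called negative, against 1.10% of all genes called negative and 2.74% called in either direction. The Sesn1 call was lost in 11 of the 16 fits without 1 library (-0.57 to -0.45 over the 16).

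**Figure D4:**
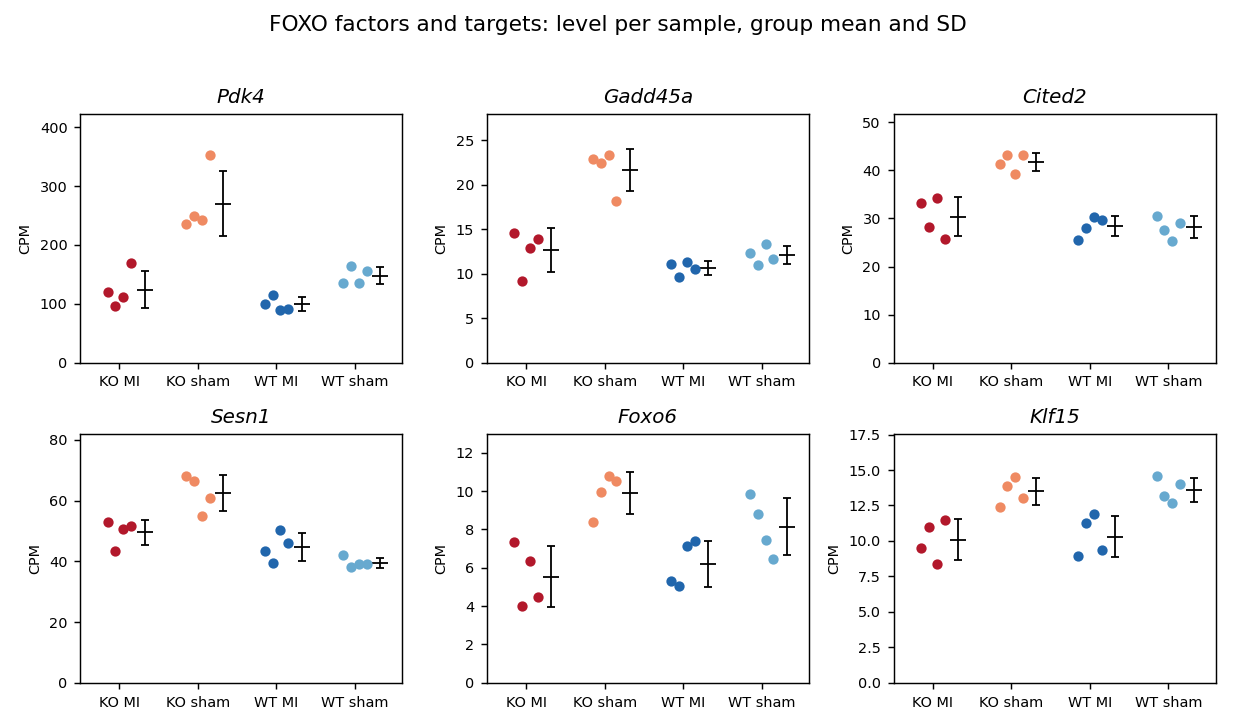
CPM of 6 genes of the FOXO list in every sample (points), in the groups KO MI, KO sham, WT MI and WT sham, with the group mean and SD as bars (n = 4). Pdk4 lay at 95.5 to 169 CPM in the KO MI samples and at 236 to 352 CPM in the KO sham samples.

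Of 10 tested genes for the glucose-sensing Mondo factors, the arrestins related to Txnip and the thioredoxins, 1 was called higher and 1 lower in KO MI than in KO sham (20%, background 16.6%). The 2 calls became 3 without the 2 libraries and 5 without the 3. Leaving out 1 library gave 1 to 3, with 1 in the fits without KO MI replicates 2 or 3, any KO sham library, WT MI replicates 1 or 4, or WT sham replicates 1 or 4. After sham the list had 2 calls, 1 without the 2 libraries, 4 without the 3 and without KO MI replicate 4, 0 without KO sham replicate 4 or WT sham replicate 2, and 1 without KO MI replicate 1, KO sham replicates 1, 2 or 3, WT MI replicate 1, or WT sham replicates 3 or 4. Arrdc3, an arrestin of the same family as Txnip, was at 21.6 ± 2.01 CPM in KO MI and 33.4 ± 4.53 CPM in KO sham (log2 -0.62 ± 0.12, edgeR adjusted p = 0.00201). It was higher in KO sham than in WT sham, at 24.5 ± 2.9 CPM (log2 0.43 ± 0.12, adjusted p = 0.0175), a call lost without KO sham replicate 4 (0.34) or WT sham replicate 2 (0.37). Arrdc4, the paralogue that responds to glucose together with Txnip, was not called (14.4 ± 3.5 CPM in KO MI and 19.1 ± 2.12 CPM in KO sham, adjusted p = 0.0931). In WT it was at 10.7 ± 1.41 CPM after MI and 14.3 ± 2.67 CPM after sham, also uncalled. Txn1, the thioredoxin that TXNIP binds, was higher in KO MI by 0.27 ± 0.09 (adjusted p = 0.0475) and its mitochondrial counterpart Txn2 lower in KO sham than in WT sham by -0.28 ± 0.09 (adjusted p = 0.0433). The Txn1 call was lost in 12 and the Txn2 call in 10 of the 16 fits without 1 library, and both after the length and GC correction (0.10 and -0.16).

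The 8 tested subunits and partners of AMP-activated kinase, which raises glucose uptake when energy is short, gave 1 call in each of these 2 comparisons (12.5%, background 16.6% and 15.3%). In KO MI against KO sham the count was 2 without the 2 or the 3 libraries, 2 without WT MI replicate 2 and 0 without KO MI replicate 3 or KO sham replicate 4. In KO sham against WT sham it was 1 without the 2 and 2 without the 3, 3 without WT sham replicate 1, and 2 without KO MI replicate 4, WT MI replicates 2 or 3 or WT sham replicate 3. Prkaa2, the catalytic alpha 2 subunit of muscle, was at 29.3 ± 6.22 CPM in KO MI and 52.5 ± 4.76 CPM in KO sham (log2 -0.84 ± 0.22, edgeR adjusted p = 0.0177), lost without KO MI replicate 3 (-0.75) or KO sham replicate 4 (-0.79). Prkag2, a regulatory subunit whose mutation causes glycogen storage in the heart, was at 70.3 ± 5.29 CPM in KO sham and 94.9 ± 8.56 CPM in WT sham (log2 -0.44 ± 0.08, adjusted p = 0.00192).

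Ide, on chromosome 19, differed most between KO MI and KO sham among the 9 genes. It had 80.1, 75.3, 75.7 and 117 CPM in KO MI, against 220, 212, 219 and 244 CPM in KO sham. In WT it had 89.6, 74.9, 164 and 119 CPM after MI, against 138, 136, 128 and 183 CPM after sham. The 4 KO sham samples lay close together (coefficient of variation 6.29%) and above all 12 others, whereas the WT MI samples spread from the KO MI level to the WT sham level. Means were 87.1 ± 20.2 CPM in KO MI and 224 ± 14.1 CPM in KO sham, a log2 difference of -1.36 ± 0.20, or 2.57-fold lower. Leaving out any 1 library gave -1.54 to -1.30, the other settings gave -1.53 to -1.27, and the call held in each.

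The WT response of Ide was -0.39 ± 0.20 (112 ± 39.5 CPM in WT MI and 146 ± 25 CPM in WT sham) and not called. Without WT MI replicate 3 it was -0.63 and called. KO sham exceeded WT sham by 0.60 ± 0.20, a gain of 52.1% with no overlap between samples. That call was near the threshold and ended in 11 of the 16 fits without 1 library (0.54 to 0.73 over the 16), as well as with no filter on low counts (0.61), with a covariate for Y-linked transcripts (0.60), with the length and GC correction (0.48) and without the 2 libraries lowest in lung transcripts (0.57). KO MI and WT MI overlapped, at -0.36 ± 0.20.

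Of 8 genes listed for other peptide-degrading metalloproteases and for insulin, which Ide cuts, only the 6 metalloproteases were tested. Among these, 2 were called lower in KO MI than in KO sham (33.3%, against 8.02% of all genes called lower). The count was 2 without the 2 libraries, 4 without the 3, and 1 without KO MI replicates 2 or 3 or any KO sham library. Ece1, endothelin-converting enzyme 1, was at 69.5 ± 4.11 CPM in KO MI and 90.2 ± 3.4 CPM in KO sham (log2 -0.37 ± 0.09, edgeR adjusted p = 0.00677), and was higher in KO sham than in WT sham, at 70.3 ± 7.97 CPM (log2 0.35 ± 0.09, adjusted p = 0.0101). Mme, encoding neprilysin, was at 2.71 ± 0.998 CPM in KO MI and 4.74 ± 0.419 CPM in KO sham (log2 -0.80 ± 0.25, adjusted p = 0.036), a call lost in 6 of the 16 fits without 1 library and after the length and GC correction (-0.59). Nrdc, encoding nardilysin of the same protease family as IDE, was at 171 ± 14.4 CPM in KO MI and 191 ± 8.69 CPM in KO sham and was not called (log2 -0.17 ± 0.08, adjusted p = 0.144).

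The genes on either side of Ide did not all follow it. Of the 6 neighbours tested, 2 were called lower in KO MI than in KO sham (33.3%, against 8.02% of all genes called lower). The count was 2 without the 2 or the 3 libraries and 1 without KO MI replicates 1, 2 or 3 or any KO sham library. They were Cpeb3 (12.7 ± 0.997 and 21.8 ± 2.18 CPM, log2 -0.78 ± 0.13, edgeR adjusted p = 0.000786) and Btaf1 (27.7 ± 12 and 49.4 ± 2.63 CPM, log2 -0.84 ± 0.25, adjusted p = 0.0299). Cpeb3, a regulator of translation, is the second tabulated gene from Ide on one side, and Btaf1, a remodeller of TATA-binding protein, the third on that side. The Btaf1 call was lost in 7 of the 16 fits without 1 library. Kif11, a mitotic kinesin and the adjacent gene on the other side, was at 48.7 ± 7.73 CPM in KO MI and 41.5 ± 2.67 CPM in KO sham and was not called (log2 0.23 ± 0.14, adjusted p = 0.259). Hhex, a homeobox gene beyond Kif11, was uncalled in KO (log2 0.28 ± 0.15, adjusted p = 0.223) and called higher in WT MI (6.51 ± 0.738 CPM) than in WT sham (4.15 ± 0.745 CPM; log2 0.66 ± 0.16, adjusted p = 0.038), a call lost in 8 of the 16 fits and without the libraries low in lung transcripts (0.56). Cpeb3 was higher in KO sham than in WT sham (log2 0.40 ± 0.13, adjusted p = 0.0392), which was lost without KO sham replicates 1, 2 or 4 or WT sham replicates 2 or 3 (0.29 to 0.42), without the libraries that stood apart (0.29 and 0.30) and after the length and GC correction (0.27).

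Over the 16 samples, the levels of Ide and Insr followed each other (Pearson r of log2 CPM = 0.88), and those of Slc2a1 and Ide ran opposite (r = -0.81). Subtracting the group means lowered these to 0.49 and -0.49, so much of each lies in the difference between groups, which was also what chose the genes. Within groups the highest value of all pairs was that of Irs1 and Pik3r1 (r = 0.85) and the lowest that of Slc2a4 and Pik3r1 (r = -0.77). WT MI replicate 2 and WT sham replicate 2, the libraries lowest in lung transcripts, were the lowest of their groups in Irs1 (7.96 and 8.82 CPM) and Pik3r1 (18 and 16.5 CPM). They were the highest of their groups in Slc2a4 (161 and 176 CPM). Their part in these r values was not tested. All values come from the same 16 libraries, with their depth and composition in common.

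Out of 10363 named genes that averaged 5 CPM or more, those whose log2 level was most like Ide over the 16 samples were Clasp2 (r = 0.936), Phtf2, Wdr26, Cacna2d1 and Fyco1 (r = 0.925). Fyco1, an adaptor of autophagic vesicles, was at 154 ± 17.5 CPM in KO MI, 298 ± 9.89 CPM in KO sham, 157 ± 33.4 CPM in WT MI and 201 ± 33.7 CPM in WT sham. Cacna2d1, a subunit of the L-type calcium channel, was at 35.1 ± 4.08, 63.8 ± 4.12, 35.8 ± 8.41 and 44.7 ± 5.31 CPM in KO MI, KO sham, WT MI and WT sham. The least like Ide were Tmem173 (r = -0.941), Timp1 (-0.938), Hax1, Tssc4 and Stmn1 (-0.914). Timp1, an inhibitor of matrix metalloproteinases, was at 21.6 ± 2.67, 9.94 ± 0.84, 20.1 ± 6.81 and 15 ± 0.599 CPM in KO MI, KO sham, WT MI and WT sham. For Txnip the closest were Kansl1 (r = 0.902), Sertad2, Cited2 (0.887), Arhgef3 and Rbl2 (0.879). For Slc2a4 they were Ppp2r1a (0.894), Fhl2, Slc41a3, Rab3a and Dtna (0.871), and for Slc2a1 they were Pdk3 (0.922), Timm50, Fignl1, Plvap and Tgm2 (0.897).

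Over all 10 lists, 126 of 134 genes were tested. KO MI against KO sham called 27 (21.4%, against 16.6% of all genes). Of these, 7 were higher (5.56%, against 8.54% of all genes) and 20 lower (15.9%, against 8.02%). WT MI against WT sham called 3 (2.38%), all higher, with Ppp1r3c and Hhex among them, against 2.25% of all genes. KO sham against WT sham called 21 (16.7%, against 15.3%), of which 15 were higher (11.9%, against 7.60%) and 6 lower (4.76%, against 7.74%). KO MI against WT MI called 0 (0.0149% of all genes), with 8 at an unadjusted p under 0.05 in edgeR (4.76% of all genes), 0 by DESeq2 and 0 by voom.

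Markers of other cell types moved with the same groups, and their part in the results above was not tested. Leukocyte markers were called higher in 5 of 7 tested between KO MI and KO sham (8.54% of all genes). Between WT MI and WT sham they were called higher in 2 of 7 (1.32% of all genes). Their summed level over 8 markers was 176 to 388 CPM in KO MI, 122 to 137 CPM in KO sham, 135 to 223 CPM in WT MI and 93 to 109 CPM in WT sham. Red cell markers were called lower in 7 of 7 tested between KO sham and WT sham (7.74% of all genes). They were called higher in 3 of 7 between KO MI and KO sham (8.54%) and lower in 5 of 7 between WT MI and WT sham (0.932%). Their sum over 8 markers was 1130 to 1860 CPM in KO MI, 993 to 1410 CPM in KO sham, 1720 to 2100 CPM in WT MI and 2940 to 4710 CPM in WT sham. All 3 atrial markers were called lower in KO sham (summed level 123 to 244 CPM) than in WT sham (375 to 1380 CPM), against 7.74% of all genes. Their sums were 182 to 557 CPM in KO MI and 280 to 887 CPM in WT MI. Of 8 cardiomyocyte markers 3 were called lower in KO MI than in KO sham (8.02% of all genes). KO MI replicate 4 was lowest in their sum at 40900 CPM. The other KO MI libraries had 59700 to 64700 CPM, against 60900 to 62900 CPM in KO sham. The sums were 61500 to 65900 CPM in WT MI and 64500 to 74300 CPM in WT sham. Without haemoglobin and mitochondrially encoded genes in the library totals, the same numbers of the 9 genes were called as with them, 6 between KO MI and KO sham and 5 between KO sham and WT sham.

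Adipocyte markers summed to 42.2 to 61.3 CPM in KO MI and 44 to 48.9 CPM in KO sham, against 45.9 to 83.7 CPM in WT MI and 51.2 to 90 CPM in WT sham, and skeletal muscle markers to 3.21 to 7.65 CPM over all samples. Slc2a4 is abundant in both of these tissues. Between KO sham and WT sham, 1 of 3 tested adipocyte markers and 1 of 2 tested skeletal muscle markers were called lower (7.74% of all genes). The median log2 difference of the 3 adipocyte markers was -5.04. Between WT MI and WT sham, 1 of the 2 skeletal muscle markers was called lower (0.932% of all genes). Endothelial and fibroblast markers, the remaining cell type lists, summed to 1410 to 1870 and 2390 to 2680 CPM in KO MI, 1760 to 1860 and 2350 to 2490 CPM in KO sham, 1600 to 1750 and 2650 to 2910 CPM in WT MI, and 1530 to 1720 and 2310 to 2630 CPM in WT sham. In KO sham against WT sham, 2 of 8 endothelial markers were called higher and 1 lower (7.60% and 7.74% of all genes). Of 6 fibroblast markers, 1 was called in each direction there.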

How the data were processed

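Polyadenylated RNA of 16 ventricle samples was sequenced in 4 groups of 4. Per the submitters' processing notes, the tools included cutadapt 3.4, HISAT2 2.2.1 and HTSeq 0.13.5 with build GRCm39. The authors deposited whole-number read counts per Ensembl gene. Lines of reads assigned to no gene (23.7 to 28.2% in no feature, 1.56 to 2.08% ambiguous) were left out. Here edgeR 4.0.16 (R 4.3.3) was used with TMM scaling, filterByExpr, and robust quasi-likelihood tests, the 16 libraries entering together with 1 term for each of the 4 groups (12 residual degrees of freedom). Tests were two-sided, and differences have SE. CPM used TMM-scaled totals. Symbols, exon lengths and gene order came from a GRCm38 annotation, so gene coordinates are not given. Promoters are RefSeq windows, found for 7 of the 9 genes.

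The genes and lists were chosen with earlier results of these counts known. From each list, up to 4 called genes with the smallest p were named per comparison, with Slc2a3, Tbc1d4, Hk1, Gys1, Grb10, Akt2, Foxo1, Klf15, Pdk4, Arrdc4, Nrdc, Kif11, Hhex, Igf1r and Chrna7; for likeness, 5 genes by Pearson r of log2 CPM (prior count 2). Some genes the rule names are not reported here.

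Alternatives were DESeq2 1.42.0, limma 3.58.1 voom, other scalings and filters, a replicate block, a Y-linked covariate, the compared groups alone, a length and GC correction and leaving out each library. Leaving out the libraries apart in lung transcripts was added after seeing the data. Labels name no batch. P-values measure only the spread between these samples, which may be technical. Replicate pairs differed beyond sampling noise (chi-square per gene 3.8 to 69.3). On simulated counts for KO MI against KO sham over 13412 genes, the fit recovered 82 of 100 genes changed by 1 and 91 of 100 changed by 1.5 on the log2 scale, with 10 false calls. No other genes were changed, and counts were drawn independently of each other. These rates may therefore not hold for smaller differences or for libraries that deviate in many genes together.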

Additional observations from a re-analysis of the deposited data

Results flagged for a closer look

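Of 36 groups of 4 values (9 genes in 4 groups), 3 had a sample far from the other 3 by Dixon's criterion, which chance gives in about 1 in 20 groups. Slc2a1 stood at 29.7 CPM in WT MI replicate 2, against 19 to 20.7 CPM in the other WT MI samples. Ide stood at 117 CPM in KO MI replicate 4, against 75.3 to 80.1 CPM in the other KO MI samples. Txnip stood at 519 CPM in KO MI replicate 1, against 392 to 406 CPM in the other KO MI samples. WT MI replicate 2 and KO MI replicate 4 are also among the libraries that stood apart in lung transcripts.

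The response of Sesn1 to infarction was called different between KO and WT in the test of that difference (log2 -0.51, edgeR adjusted p = 0.0395), as were 2.74% of all genes. The Sesn1 call was lost in 11 of the 16 fits without 1 library.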

How the results depend on the processing

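Over 13 other settings and 16 fits that each left out 1 library, 1292 of 1296 values of the 9 genes moved by less than 1 SD between replicates, 4 moved further and 0 reversed a call. The moved values were those of Insr after the length and GC correction (-0.39, 0.15 and, in the interaction, -0.24) and Ide in KO MI against WT MI without the 3 libraries apart in lung transcripts (-0.69). Calls among the 9 in the interaction, 0 as reported, were 2 by DESeq2, 4 by voom, 1 with a Y-linked covariate, 4 without the 2 libraries lowest in lung transcripts and 3 without all 3. Pathway calls in KO MI against KO sham, 27 as reported, were 51 by voom and 49 without the 3 libraries. In WT MI against WT sham, 3 as reported, they were 6 by DESeq2, 6 by voom, 1 with the Y-linked covariate, 6 with the length and GC correction and 8 without the 3 libraries. In KO sham against WT sham, 21 as reported, they were 45 by voom, 39 with the compared groups alone and 32 without the 3 libraries. In KO MI against WT MI, 0 as reported, there was 1 without the 3 libraries. In the interaction, 1 as reported, they were 3 by DESeq2, 19 by voom, 3 with the length and GC correction, 3 without the 2 libraries and 18 without the 3. The causes of these changes were not tested.

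Leaving out 1 library gave 4 to 7 calls among the 9 in KO MI against KO sham (4 without KO MI replicate 3), 0 to 1 in WT MI against WT sham, 3 to 6 in KO sham against WT sham (3 without KO sham replicates 1, 3 or 4 or WT sham replicate 2), 0 to 0 in KO MI against WT MI and 0 to 5 in the interaction. For the pathway genes the ranges were 19 to 39, 0 to 7, 12 to 33 (12 without WT sham replicate 2), 0 to 0 and 0 to 5 in the same order.

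Same-numbered samples of different groups showed no general pairing: 4 of 24 correlations of their deviations were over 0.1 (-0.097 to 0.475), and 5 of 16 samples correlated best with their own number. The highest, 0.475, was that of WT MI replicate 2 with WT sham replicate 2, the 2 libraries lowest in lung transcripts. The next was 0.157. With the replicate block, the calls among the 9 genes were 6, 0, 5, 0 and 1 in that order of comparisons and those of the pathway genes 33, 4, 24, 0 and 1. At these depths a count of 3 reads is 0.18 to 0.289 CPM, which limits Chrna7, Ins2 and Slc2a6.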
